A study of Mus musculus with 6 samples.

Results

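The transcripts described here encode 9 proteins through which adipose tissue takes up glycerol, phosphorylates it, or makes glycerol 3-phosphate from smaller precursors. They are the channels Aqp3 and Aqp7, the glycerol kinase Gk, the glycerol 3-phosphate dehydrogenases Gpd1, Gpd1l and Gpd2, the phosphoenolpyruvate carboxykinases Pck1 and Pck2, and the acyltransferase Gpam. These 9 genes, out of 47069 genes counted in each mouse, were chosen by function, with the Egr1-/- against Egr1+/+ difference in these same counts already known. Their values between genotypes are therefore given as a description, and nothing is supported with them. RNA was measured in inguinal subcutaneous white adipose tissue (SC-WAT) of 2-week-old female mice labelled C57BL/6 (the line was kept on C57BL/6 J), 1 library per mouse, in 3 Egr1+/+ mice (wild type) and 3 Egr1-/- mice. In the Egr1-/- line, the gene of the zinc finger transcription factor EGR1 carries a LacZ insertion and a frameshift ahead of the part that encodes the DNA-binding domain, and all cells of the animal carry the allele. The mice came from heterozygous crosses and several litters, and no treatment was applied to either genotype. The comparison asks how RNA levels in SC-WAT differ when Egr1 is lost without external stimulation.

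Every triglyceride is built on a glycerol 3-phosphate backbone. In white adipocytes this backbone is classically held to come from glycolysis, through reduction of dihydroxyacetone phosphate, or from glyceroneogenesis, in which PEPCK turns oxaloacetate into phosphoenolpyruvate that is carried back up to the triose phosphates. Glycerol kinase, which reuses the glycerol set free by lipolysis, is abundant in brown fat and low in classical white fat. The cytosolic and the mitochondrial glycerol 3-phosphate dehydrogenase together form a shuttle that passes electrons from cytosolic NADH to the respiratory chain, and the mitochondrial enzyme is typical of brown fat.

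The promoters of the genes were read from the RefSeq annotation of GRCm38.p6, in windows of 300 bases that end 50 bases after a transcription start site. There were 11 windows for 8 of the 9 genes, and Gpd1 is named only. The 250 bases upstream of the start site are printed for Gk and for both start sites of Gpd2, because these are the genes with a window whose levels lay furthest apart between genotypes. Capitals mark CG dinucleotides, and every sequence is written 5′ to 3′ on the strand of the gene.
Gk, chrX:85776820-85777069, minus strand: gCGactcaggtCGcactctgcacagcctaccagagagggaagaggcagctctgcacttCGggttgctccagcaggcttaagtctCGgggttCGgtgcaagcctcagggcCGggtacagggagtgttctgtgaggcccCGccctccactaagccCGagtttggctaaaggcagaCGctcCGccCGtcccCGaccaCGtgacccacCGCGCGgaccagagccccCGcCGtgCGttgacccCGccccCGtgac
Gpd2, upstream start site, chr2:57237428-57237677, plus strand: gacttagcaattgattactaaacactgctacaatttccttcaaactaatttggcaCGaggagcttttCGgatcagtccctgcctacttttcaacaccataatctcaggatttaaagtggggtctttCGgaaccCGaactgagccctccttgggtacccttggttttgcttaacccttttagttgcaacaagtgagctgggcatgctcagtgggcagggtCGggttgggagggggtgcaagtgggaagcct
Gpd2, downstream start site, chr2:57238132-57238381, plus strand: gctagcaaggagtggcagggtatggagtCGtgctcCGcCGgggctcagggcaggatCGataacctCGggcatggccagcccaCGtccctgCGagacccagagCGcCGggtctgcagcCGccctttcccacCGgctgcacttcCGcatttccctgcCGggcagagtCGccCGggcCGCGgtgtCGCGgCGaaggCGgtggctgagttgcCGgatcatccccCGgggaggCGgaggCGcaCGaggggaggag
The Gk stretch held 21 CG dinucleotides at 67.2% G+C, and that of the downstream Gpd2 start site held 26 at 71.2%. The upstream Gpd2 start site was poorer, with 5 CG dinucleotides at 48.8% G+C. Over the 32851 mouse windows the medians were 6 CG dinucleotides and 52.4% G+C. Among the other genes the count of CG dinucleotides ran from 0 in a window of Aqp7 to 21 in a window of Gpam, so a CG-rich promoter was not shared by all of them.

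A pair of motifs was searched on both strands, with no overlap between their matches in the windows printed. The letters GCGNGGGCG, a core known for EGR1, were found without mismatch in 5.55% of all windows (1824 of 32851). Among the 11 windows they occurred in that of Aqp3 alone, 72 bases upstream of its start site on the opposite strand. The DR1 element, AGGTCA repeated after a spacer of 1 base and known as the site of PPAR and RXR dimers, was found in 0.0396% of windows without mismatch, 0.554% with up to 1 and 3.86% with up to 2 mismatches. Of the 8 genes with a window, only Aqp7 held a DR1 match, and only when 2 mismatches were allowed. The stretches of Aqp3 and of the downstream Aqp7 start site are printed with these matches in capitals.
Aqp3, chr4:41098184-41098433, minus strand: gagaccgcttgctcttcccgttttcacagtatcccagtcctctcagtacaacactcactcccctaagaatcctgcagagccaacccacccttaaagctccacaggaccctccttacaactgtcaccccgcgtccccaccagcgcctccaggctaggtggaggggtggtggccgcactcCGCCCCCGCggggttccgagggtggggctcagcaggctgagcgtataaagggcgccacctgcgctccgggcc
Aqp7, downstream start site, chr4:41047963-41048212, minus strand: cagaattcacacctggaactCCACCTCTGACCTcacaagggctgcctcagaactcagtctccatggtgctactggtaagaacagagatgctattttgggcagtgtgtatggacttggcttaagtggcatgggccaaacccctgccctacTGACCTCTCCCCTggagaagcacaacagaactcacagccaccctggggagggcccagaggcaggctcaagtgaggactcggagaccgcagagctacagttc
The Aqp7 matches begin 230 and 101 bases upstream of this start site, and the one further upstream also lies in the window of the other Aqp7 start site. No such match was found in the windows of Gk, Gpd1l, Gpd2, Pck1, Pck2 or Gpam, which says nothing about binding outside these letters or windows.

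Counts on genes summed to between 29661984 and 42357981 per mouse, and mitochondrial genes took 50.0% to 66.3% of them. All 9 genes were among the 17667 genes tested. Levels are given as CPM, a gene's counts relative to all counts of the library after TMM scaling, in the order of replicates 1, 2 and 3, and error is the SD over 3 mice unless named otherwise. Egr1 itself was at 10.3, 8.02 and 16.5 CPM in Egr1+/+ mice and at 3.09, 2.71 and 1.84 CPM in Egr1-/- mice. The libraries thus followed their labels, with some reads left on the disrupted gene. In whole tissue, fewer cells of a type and less RNA per cell cannot be told apart.

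The glycerol channels were not separated between genotypes. Aqp7 (chromosome 4, 41033074 to 41048139), the main aquaglyceroporin of adipocytes, was at 32.2, 50.9 and 43.3 CPM in Egr1+/+ mice and 54.2, 41.0 and 49.6 CPM in Egr1-/- mice. The genotypes overlapped, and the lowest of the 6 values belonged to an Egr1+/+ mouse. The fitted log2 fold change of Egr1-/- over Egr1+/+ was 0.20 (SE 0.177), with a 95% interval from -0.20 to 0.60. Aqp3 (chromosome 4, 41092722 to 41098183), an aquaglyceroporin best known from kidney and skin, was close to the limit of the data, with 22, 20 and 27 counts in the wild type and only 18, 26 and 11 after the loss of Egr1. These are 0.640, 0.666 and 0.626 CPM against 0.540, 0.839 and 0.356 CPM, and the Egr1-/- mice held both the highest and the lowest value. Its log2 fold change of -0.15 (SE 0.418) had an interval from -1.10 to 0.79 and became 0.10 when Egr1-/- replicate 3 was left out, so no direction was detectable at this depth.

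Gk, which phosphorylates glycerol to glycerol 3-phosphate, stood furthest apart between genotypes of the 9 genes. It lies on chromosome X (85701937 to 85776819, minus strand). Its level was 31.49, 27.40 and 25.12 CPM in Egr1+/+ mice, a mean of 28.0 ± 3.23, and 57.27, 59.82 and 77.20 CPM in Egr1-/- mice, a mean of 64.8 ± 10.8. The genotypes were far from overlapping, with the lowest Egr1-/- mouse well above the highest Egr1+/+ mouse. The difference was 1.21 on the log2 scale (SE 0.149, 95% interval 0.87 to 1.55), or 2.31-fold. The antisense transcript Gm14764 shares 84 bases with the exons of Gk and had 0 to 3 counts per mouse. The testis-type relatives Gk2 and Gykl1 had at most 7 and 4 counts in any mouse.

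Both sides of the glycerol phosphate shuttle had a higher CPM in all Egr1-/- mice. Gpd2 (chromosome 2, 57237635 to 57370719), the mitochondrial dehydrogenase that passes electrons to ubiquinone, was at 142, 112 and 109.7 CPM in Egr1+/+ mice and 207, 179 and 298 CPM in Egr1-/- mice. Egr1-/- replicate 3 was the highest by a wide margin, and the genotypes did not overlap. The means were 121 ± 17.9 and 228 ± 62.5 CPM, and the difference was 0.91 on the log2 scale (SE 0.200, 95% interval 0.46 to 1.36), or 1.88-fold. Gpd1 (chromosome 15, 99717515 to 99725005), the cytosolic NADH-linked dehydrogenase that makes glycerol 3-phosphate from dihydroxyacetone phosphate, was at 572, 390.1 and 379 CPM in Egr1+/+ mice and 750.4, 608 and 958 CPM in Egr1-/- mice. The highest Egr1+/+ mouse and the lowest Egr1-/- mouse lay close to each other. The difference was 0.79 on the log2 scale (SE 0.217, 95% interval 0.30 to 1.28), or 1.73-fold. Its paralog Gpd1l (chromosome 9, 114899341 to 114933987), described mainly in heart, was at 21.86, 21.21 and 22.01 CPM in Egr1+/+ mice and 23.95, 23.95 and 26.48 CPM in Egr1-/- mice. The groups were separate but near each other, and the log2 fold change was 0.19 (SE 0.105, 95% interval -0.04 to 0.43). Opposite-strand transcripts overlap 13.0% of the exon bases of Gpd1 (Gm16537, 21 to 63 counts per mouse) and 7.44% of those of Gpd2 (A930012O16Rik, 18 to 44 counts), against 11716 to 29640 counts on Gpd1 and 3373 to 9226 on Gpd2.

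**Figure D1:**
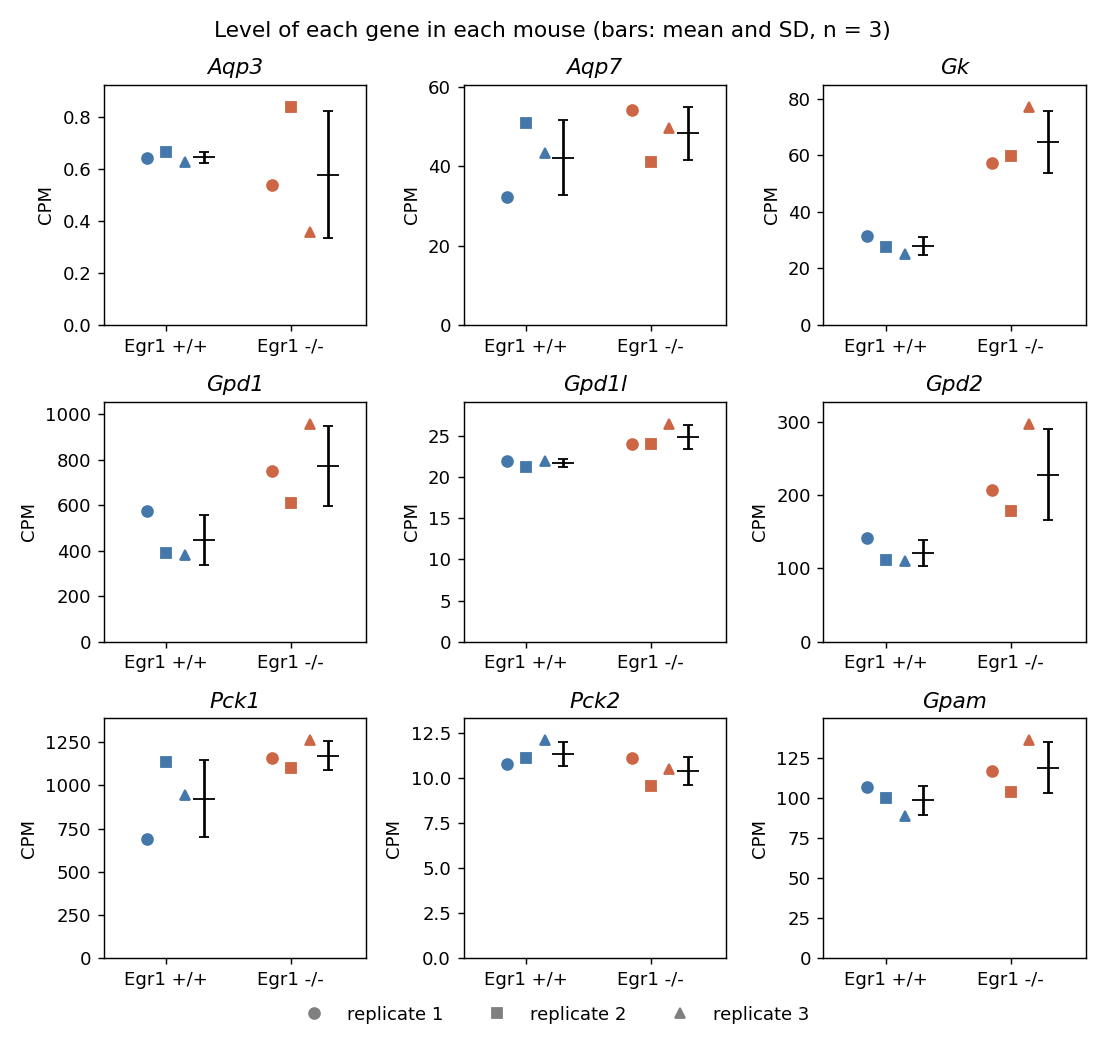
Level of each of the 9 genes in CPM (vertical axes, each from 0) in 3 Egr1+/+ and 3 Egr1-/- mice, with a symbol for each replicate and black bars for the mean and SD. Gk, Gpd1, Gpd1l and Gpd2 have all Egr1-/- mice above all Egr1+/+ mice, while the genotypes overlap for Aqp3, Aqp7, Pck1, Pck2 and Gpam.

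The carboxykinases of glyceroneogenesis showed no such separation. Pck1 (chromosome 2, 173153048 to 173159273), the cytosolic enzyme, was at 691, 1136 and 945 CPM in Egr1+/+ mice and 1157, 1101 and 1261 CPM in Egr1-/- mice. Egr1+/+ replicate 1 stood low, and replicate 2 lay within the range of the Egr1-/- mice. The log2 fold change was 0.34 (SE 0.189, 95% interval -0.08 to 0.77). Pck2 (chromosome 14, 55540266 to 55551242), the mitochondrial enzyme, was at 10.8, 11.1 and 12.1 CPM against 11.1, 9.59 and 10.5 CPM. The values overlapped, with a log2 fold change of -0.12 (SE 0.127, 95% interval -0.41 to 0.16). Gpam (chromosome 19, 55067268 to 55127238), the mitochondrial acyltransferase that adds an acyl chain to glycerol 3-phosphate and so commits it to lipid, was at 107, 99.8 and 89.0 CPM in Egr1+/+ mice and 117, 104 and 136 CPM in Egr1-/- mice. Its log2 fold change was 0.27 (SE 0.137, 95% interval -0.04 to 0.58), and the lowest Egr1-/- mouse lay within the Egr1+/+ range.

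**Figure D2:**
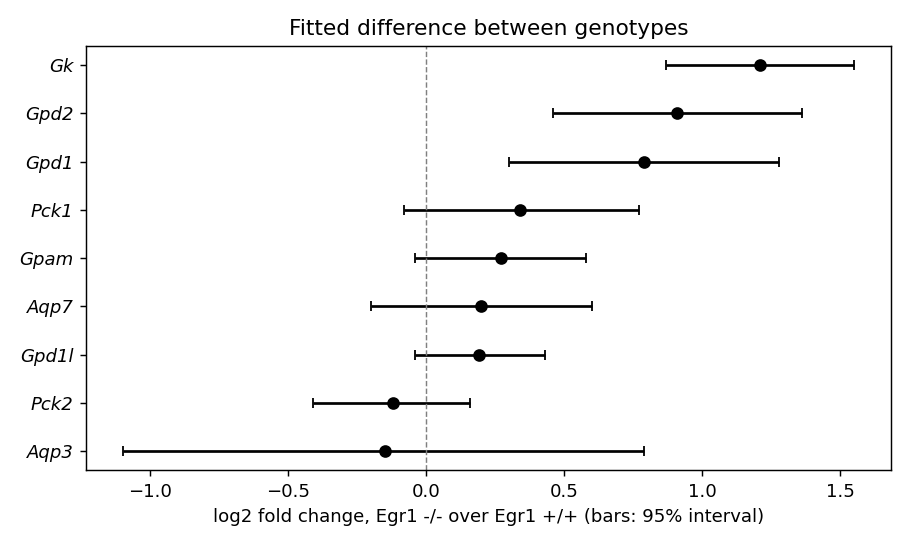
Fitted log2 fold change of Egr1-/- over Egr1+/+ mice (horizontal axis) for the 9 genes, with bars for the 95% interval of the edgeR fit and a dashed line at 0. The intervals of Gk (0.87 to 1.55), Gpd2 (0.46 to 1.36) and Gpd1 (0.30 to 1.28) lie above 0 and those of the other genes include it.

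Of the 9 genes, 4 had every Egr1-/- mouse above every Egr1+/+ mouse, against 8.15% of all genes tested, and 0 had every Egr1-/- mouse below, against 8.10%. By edgeR, with p adjusted over all genes (Benjamini-Hochberg), 0 of the 9 passed a threshold of 0.05, where 0.0170% of all genes (3 of 17667) did, and the adjusted p of the 9 ran from 0.0748 for Gk to 0.928 for Aqp3. The disrupted gene Egr1 did not pass either, with a log2 fold change of -2.19 and an edgeR adjusted p of 0.0878. Failing this threshold therefore does not show that a gene was unchanged. At an unadjusted p under 0.05 there were 3 of the 9 and 1884 of all genes. DESeq2 on the same counts called Gk (adjusted p = 1.53e-09), Gpd2 (0.000883) and Gpd1 (0.00795) increased, where 0.928% of genes were called increased. Because the genes were taken up on this contrast, nothing is read from these shares.

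Levels can be compared between genes only per length. On the TPM scale, which divides counts by the length of merged exons and still includes the mitochondrial genes, Pck1 was highest in Egr1+/+ mice at 573 ± 149, followed by Gpd1 at 318 ± 66.8. Gpd2 (39.2 ± 5.56), Aqp7 (31.7 ± 7.91) and Gpam (31.3 ± 2.29) came next, and neighbours in this run of 3 overlapped over the mice. Gpd1l (9.10 ± 1.42) and Gk (7.64 ± 0.749) also overlapped, ahead of Pck2 (3.10 ± 0.619) and Aqp3 (0.748 ± 0.0851). In Egr1-/- mice the order began with Pck1 (629 ± 144) and Gpd1 (481 ± 166), whose ranges now overlapped, and Gk (15.6 ± 5.11) stood at place 6 in front of Gpd1l (8.99 ± 2.13), with ranges that still overlapped.

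**Figure D3:**
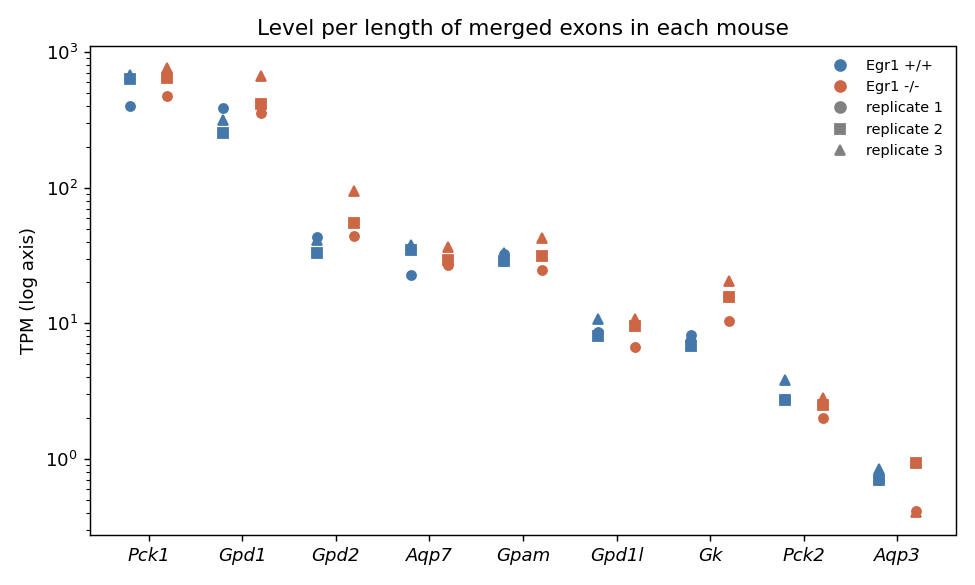
Level per length of merged exons in TPM (vertical log axis) for the 9 genes in order of their Egr1+/+ mean, with a symbol for each replicate and a colour for each genotype. Pck1 and Gpd1 lie far above the rest and Aqp3 is the lowest in every mouse.

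Within each mouse, the forms of each enzyme kept very unequal shares. The ratio of Pck1 to Pck2 per length was 145, 233 and 178 in Egr1+/+ mice, against 237, 261 and 273 in Egr1-/- mice, so the cytosolic transcript dominated in each of the 6. The ratio of Gpd1 to Gpd1l was 44.8, 31.5 and 29.5 against 53.7, 43.5 and 62.1. The ratio of Gpd1 to Gpd2, the cytosolic over the mitochondrial side of the shuttle, was 8.91, 7.68 and 7.64 in Egr1+/+ mice, against 8.04, 7.51 and 7.11 in Egr1-/- mice. This ratio varied little, although the CPM of both transcripts was higher in every Egr1-/- mouse. In TPM the genotypes overlapped for Gpd1, at 386, 252 and 316 against 357, 415 and 669.9. Gpd1l overlapped in TPM as well, while Gk and Gpd2 stayed apart. Unlike CPM, TPM had no TMM scaling, and its total includes the mitochondrial genes. These took 66.3% of the counts in Egr1-/- replicate 1, the mouse at 357, against 50% to 57.6% in the other mice. Their part in the overlap was not tested, so it is no sign that the CPM difference depends on length. The ratio of Gpd2 to Gk was 5.33, 4.85 and 5.16 in Egr1+/+ mice, against 4.26, 3.54 and 4.57 in Egr1-/- mice, without overlap. Merged exons span all annotated isoforms, which lowers the level per length of a gene such as Pck2 (7806 bases) if short isoforms prevail.

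The mice did not contribute equally. Egr1-/- replicate 3 had the highest level of the 6 mice in 6 of the 9 genes, namely Gk, Gpd2, Gpd1, Gpd1l, Gpam and Pck1. Among Egr1+/+ mice, replicate 1 was highest in 4 genes, and it was the lowest of all 6 for Pck1 and Aqp7. The same comparison can be made with Ucp1, the uncoupling protein of thermogenic adipocytes, which was at 400.3, 316 and 305 CPM in Egr1+/+ mice and 858, 571 and 949 CPM in Egr1-/- mice. Gpd1 and Gpd2 ranked the 6 mice in exactly the order of Ucp1, and were among 85 of the 17666 tested genes besides Ucp1 (0.481%) that did so. The other 7 genes did not. Ucp1 was set beside them after the values had been seen, and genotype alone places part of this order.

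**Figure D4:**
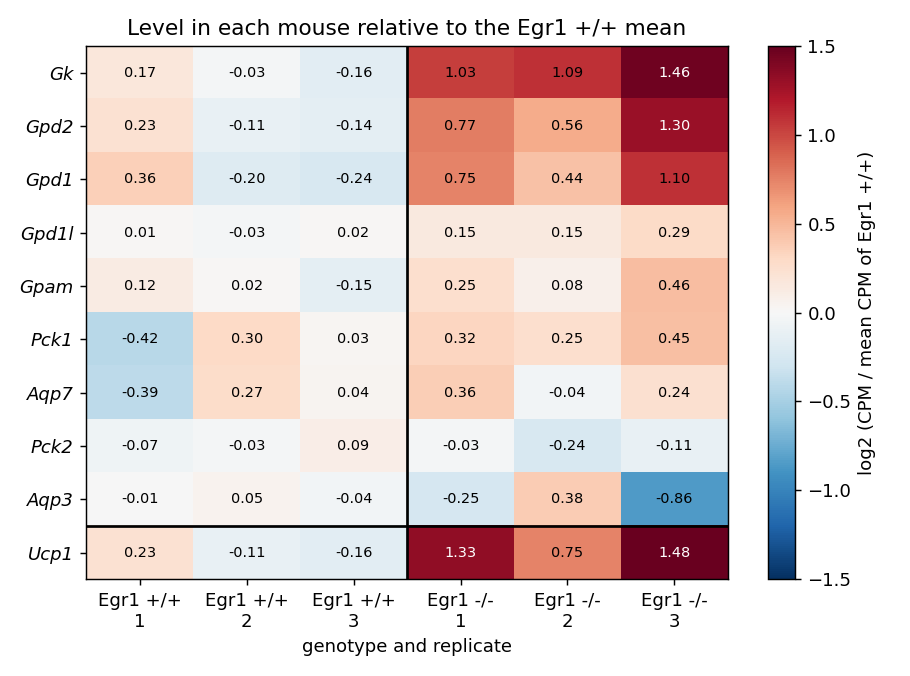
Level of the 9 genes, and of Ucp1 under the line, in each of the 6 mice (columns), coloured and labelled by log2 of its CPM over the mean CPM of Egr1+/+ mice. Gk reaches 1.03, 1.09 and 1.46 and Gpd2 0.77, 0.56 and 1.30 in Egr1-/- mice, while Pck2 stays between -0.24 and 0.09 in all mice.

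Marker lists of cell types did not all move in the direction of Gk, Gpd2 and Gpd1. The 8 brown and beige adipocyte markers together were at 687, 553 and 539 CPM in Egr1+/+ mice and 1334, 948 and 1583 CPM in Egr1-/- mice, with no overlap and a median log2 fold change of 0.97 over the 7 tested. Ucp1 alone made up much of these sums, at 400.3, 316 and 305 against 858, 571 and 949 CPM. Every Egr1-/- mouse lay above every Egr1+/+ mouse for 6 of the 7, against 8.15% of all genes tested, but not for Cox7a1. White adipocyte markers (8 genes) ran from 7265 to 8201 CPM in Egr1+/+ mice and 5805 to 6691 CPM in Egr1-/- mice. These levels show fat tissue in both genotypes, but cannot tell one fat depot from another. Stromal progenitor markers (6 genes) ran from 1554 to 1649.6 CPM and from 866 to 1223 CPM, and macrophage markers (6 genes) from 289 to 391 and from 224 to 262 CPM. Erythroid markers (6 genes) ran from 176 to 266 and from 86.8 to 167 CPM. Single genes did not all follow these sums. Hbb-bt had a log2 fold change of 0.51, and the white adipocyte markers Plin1 and Plin4 were at 0.11 and 0.00. Every Egr1-/- mouse lay below every Egr1+/+ mouse for all stromal markers, and for 3 each of the white adipocyte, macrophage and erythroid markers. Over all genes tested this share was 8.10%. Endothelial (6 genes, 321 to 483 CPM over all mice), lymphocyte (6 genes, 303 to 639 CPM) and keratinocyte and mammary epithelial markers (8 genes, 2.85 to 20.3 CPM) overlapped between genotypes. Skeletal muscle markers (9 genes) did not follow genotype but varied between 97.9 and 3470.0 CPM, with 2655 CPM in Egr1-/- replicate 3. With their level as a covariate, the log2 fold change was 1.27 for Gk, 0.97 for Gpd2 and 0.85 for Gpd1. No list had a marker at 0 in every mouse, and the part of the other cell types in the levels of the 9 genes was not tested.

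Around the 9 genes, lists of neighbouring steps were described by their counts, beside a median log2 fold change of 0.00 over all 17667 genes, with 8858 positive and 8809 negative. In edgeR's test 0 genes of any of these lists passed the threshold in either direction. Of 10 other aquaporins, 4 were tested, with a median of 0.31. The water channel Aqp1 was at 65.7, 91.1 and 53.4 CPM in Egr1+/+ mice and 118, 72.5 and 92.3 CPM in Egr1-/- mice, and the groups overlapped. Aqp9, the glycerol channel of liver, was at 0.873, 0.566 and 0.534 CPM in Egr1+/+ mice and lower, at 0.450, 0.420 and 0.194 CPM, in every Egr1-/- mouse. Like Aqp3, Aqp9 was close to the limit of the data, with 30, 17 and 23 counts against 15, 13 and 6. Its log2 fold change was -0.88 (SE 0.465, edgeR adjusted p = 0.563), and Aqp11 was at 0.23 (SE 0.302). Among the relatives of glycerol kinase, the carbohydrate kinase Fggy was at 4.16, 4.63 and 5.73 CPM in Egr1+/+ mice and at 6.63, 9.43 and 11.3 CPM in Egr1-/- mice, without overlap. The log2 fold change of Fggy was 0.91 (SE 0.223, edgeR adjusted p = 0.224), against 0.20 (SE 0.161) for Gk5.

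Downstream, 16 of 18 genes of acylation and triglyceride assembly were tested, of which 10 had a positive and 6 a negative log2 fold change, around a median of 0.25. The Egr1-/- mice all lay above the Egr1+/+ mice for 4 of the 16 and all below for 3, where 8.15% and 8.10% of all genes tested did so. Those with the lowest p were the lysophosphatidic acid acyltransferase Agpat1 and the diacylglycerol acyltransferases Dgat1 and Dgat2, which carry out the last acylation. Agpat1 was at 14.5, 14.4 and 15.6 CPM in Egr1+/+ mice and 20.1, 19.5 and 19.9 CPM in Egr1-/- mice, which gave a log2 fold change of 0.42 (SE 0.105, edgeR adjusted p = 0.227). The replicates of Agpat1 lay close together in both genotypes. Dgat2 was at 222, 133 and 129.6 CPM against 258, 241 and 325 CPM, a log2 fold change of 0.77 (SE 0.223, edgeR adjusted p = 0.269), and Dgat1 had a log2 fold change of 0.49 (SE 0.140). Of 10 genes of lipolysis and glycerol release, 7 were positive and 3 negative, with a median of 0.17. The lysosomal lipase Lipa, the hormone-sensitive lipase Lipe and the triglyceride lipase Pnpla2 had log2 fold changes of 0.41 (SE 0.145), 0.36 (SE 0.133) and 0.27 (SE 0.154).

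Upstream of PEPCK, 9 of 11 genes of pyruvate and oxaloacetate supply were positive, with a median of 0.25. Pdk2, a kinase that switches off pyruvate dehydrogenase, was at 27.48, 24.87 and 26.75 CPM in Egr1+/+ mice and 34.01, 34.06 and 43.45 CPM in Egr1-/- mice. The groups did not overlap, and its log2 fold change was 0.50 (SE 0.128, edgeR adjusted p = 0.227). Pyruvate carboxylase (Pcx), which makes oxaloacetate, had a log2 fold change of 0.41 (SE 0.148), and the dicarboxylate carrier Slc25a10 one of -0.43 (SE 0.157), with all Egr1-/- mice below all Egr1+/+ mice. Of 7 genes of the malate-aspartate shuttle, the other route for cytosolic NADH, 5 were positive and 2 negative, with a median of 0.28. Mdh2, Slc25a11 and Mdh1 had log2 fold changes of 0.64 (SE 0.168), 0.44 (SE 0.123) and 0.28 (SE 0.147). Of 13 genes of triose phosphate and dihydroxyacetone metabolism, 11 were tested and 10 were positive, with a median of 0.31, and Pgk1, Pgam1 and the dihydroxyacetone phosphate acyltransferase Gnpat had values of 0.50 (SE 0.193), 0.43 (SE 0.153) and 0.31 (SE 0.114).

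The list of 12 regulators known for these genes had a median of 0.32, with 8 positive values, and for 6 of the 12 the Egr1-/- mice all lay above the Egr1+/+ mice, as for 8.15% of all genes tested. Ppargc1a, the coactivator of thermogenic and mitochondrial genes, which is also among the brown and beige markers, was at 32.1, 19.9 and 36.4 CPM in Egr1+/+ mice and 58.7, 48.4 and 79.7 CPM in Egr1-/- mice. The genotypes did not overlap, and the log2 fold change was 1.08 (SE 0.244, edgeR adjusted p = 0.193). Ppara, the nuclear receptor of fatty acid oxidation, and Cebpb had log2 fold changes of 0.82 (SE 0.218) and 0.68 (SE 0.168). Pparg, the receptor that governs adipocyte differentiation, and its partner Rxra lay close to 0, at -0.06 (SE 0.141) and -0.03 (SE 0.129).

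**Figure D5:**
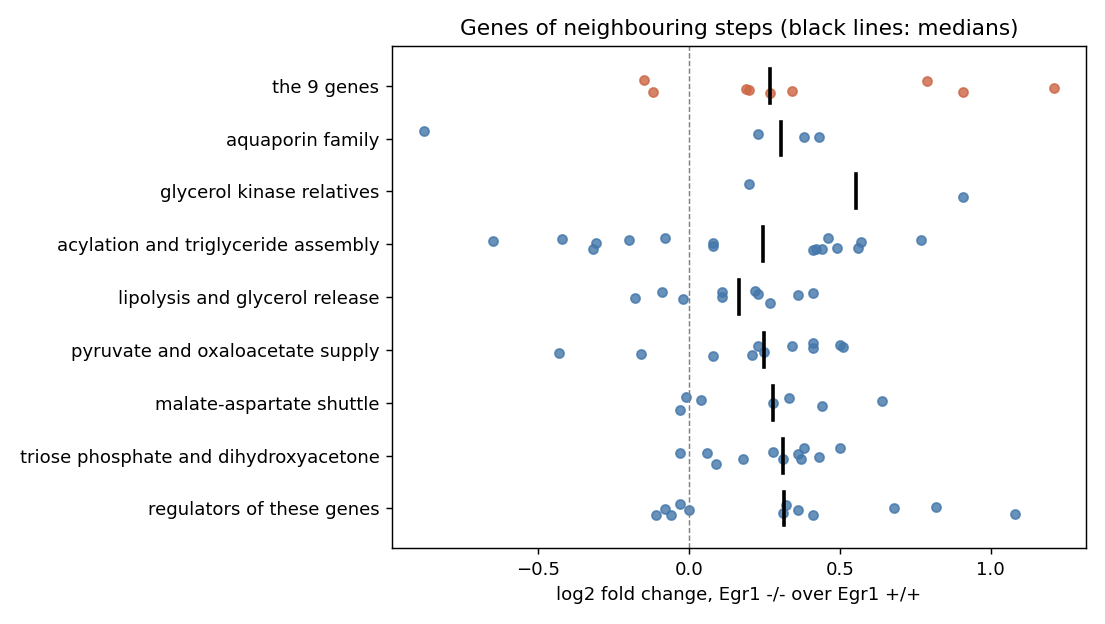
Log2 fold change of Egr1-/- over Egr1+/+ mice (horizontal axis) for each tested gene of the 9 and of the lists of neighbouring steps, with a black line at each list's median and a dashed line at 0. The medians lie between 0.17 for lipolysis and 0.56 for the 2 tested relatives of glycerol kinase, and 0.27 for the 9 genes.

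The genes whose log2 CPM over the 6 mice was most like that of Gk, by Pearson's r among 17658 other genes, were Nudt18 (0.996), Eif3s6-ps4 (0.992), Ppm1b (0.991), Nhlrc2 (0.990) and Atp13a3 (0.988). Each had all Egr1-/- mice above all Egr1+/+ mice, so the genotype difference makes up part of the likeness. The size of that difference varied, from a log2 fold change of 0.18 for Ppm1b and Atp13a3 to 3.57 for the pseudogene Eif3s6-ps4. The last value rested on only 7, 4 and 3 counts in Egr1+/+ mice, against 50, 38 and 65 in Egr1-/- mice. For Pck2, the member with the lowest p among those with a negative log2 fold change, the most like were Zc2hc1a (0.992), Gm14421 (0.985), Wnt16 (0.984), Mir6353 (0.982) and Rpn2 (0.981), of which Wnt16 and Mir6353 rested on at most 31 counts per mouse.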

How the data were processed

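Total RNA of inguinal fat pads was sequenced after ribosomal RNA depletion, with a strand-specific kit and 1 library per mouse. The paper counts 6 fat pads but does not say how many came from each mouse. The authors mapped reads with TopHat and Bowtie, guided by GENCODE M8, and deposited raw counts per gene made with featureCounts, whose strand and multimapping settings are not given in the sources used here. Genotypes came from the sample titles, and no mouse was left out. Genes were named through GENCODE M21 (46574 of 47069 identifiers matched), which also gave coordinates and exon lengths for TPM.

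The counts went into edgeR 4.0.16 under R 4.3.3 (TMM, filterByExpr, quasi-likelihood test without covariate, Benjamini-Hochberg adjustment at 0.05 over all genes). The SE was taken as the size of the log2 fold change divided by the root of its F statistic. Alternatives used DESeq2 1.42.0 and limma 3.58.1. Log2 CPM used a prior count of 2. The fits were tested on simulated data. The members, lists, named genes and alternatives were chosen with earlier results of these data known. Named genes are the 9 members, Egr1 as the genotype check, the genes of each list past the threshold or otherwise up to 3 with the lowest p, overlapping transcripts, and the 5 genes most like Gk and Pck2 (the members with the lowest p in each direction). Values of Pparg, Rxra, Ucp1, Gk2 and Gykl1, outside this rule, were added after they were seen. Nothing in the labels ties the replicate numbers to litters, so litter could not be fitted. The p-values rest on the spread between these mice, taken as independent, although the paper counts fewer litters than mice.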

Additional observations from a re-analysis of the deposited data

How the results depend on the processing

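Of 126 combinations of the 9 genes with 14 alternatives, 125 kept the direction of the log2 fold change. The exception was Aqp3, at 0.10 without Egr1-/- replicate 3. Leaving out each mouse in turn gave 1.07 to 1.29 for Gk, 0.67 to 1.06 for Gpd2, 0.61 to 0.99 for Gpd1, 0.16 to 0.52 for Pck1 and 0.02 to 0.36 for Aqp7.

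How many genes passed the adjusted threshold depended on the test. Against 3 genes, and 0 of the 9, there were 366 with DESeq2 and 552 of 38261 without a filter on low counts, each including 3 of the 9 (Gk, Gpd1 and Gpd2). Without the filter the estimate for Gk hardly moved, at 1.22 (SE 0.154) against 1.21 (SE 0.149). Its unadjusted p in edgeR's test nevertheless went from 1.87e-05 to 1.93e-15. The 552 genes are therefore no sign of larger differences, and why p fell was not tested. Limma-voom gave 1 gene and upper-quartile normalization 0. A skeletal muscle covariate gave 6 genes, 1 of them Gk. Leaving out mice gave from 0 to 59 genes, and from 0 to 1 of the 9: the 59 genes, Gk included, came without Egr1-/- replicate 1. The cause was not tested. RLE scaling and the fit without mitochondrial genes each gave 3 genes and 0 of the 9. The median log2 fold change of all genes was 0.00 under each scaling. Such scaling centres most genes near 0, so this median does not test the choice of scaling.

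With the replicate number as a replicate block, 0 genes passed (1909 at an unadjusted p under 0.05, against 1884), and Gk was at 1.20 with an edgeR adjusted p of 0.180. The deviations of same-numbered mice from their genotype means correlated at -0.0888, 0.106 and -0.126 over 17667 genes. Deviations within a genotype sum to 0, so these values cannot decide whether same-numbered mice were littermates. The paper reports an Egr1+/+ and an Egr1-/- littermate without their replicate numbers. Depth limits Aqp3, with 11 to 27 counts per mouse and log2 fold changes of -0.51 to 0.10 when mice were left out.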
